A study of Homo sapiens with 4 samples.

Results

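The lamin and cohesin genes are 9 human genes of nuclear architecture, among 20033 protein-coding genes of the main chromosomes. They are LMNB1, LMNB2 and LMNA for the lamins, RAD21, SMC1A, SMC3, STAG1 and STAG2 for cohesin subunits, and NIPBL for the cohesin loader. The set was selected on measured values: the levels of LMNB1 and RAD21 under the CDK4/6 inhibitor and in its control were known when the 9 names were listed, so those levels are given as a description, with no test. In each library a gene was said to have a gene-end summit when a deposited peak summit lay within 1000 bp of either end of the gene (RefSeq, GRCh38).

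The libraries are CUT&Tag profiles of 22RV1, a human prostate cancer cell line. There were 4 groups of 1 library each: cells given PD0332991 (palbociclib), which inhibits the kinases CDK4 and CDK6, and the control of that treatment; and cells given an siRNA against RB, the retinoblastoma protein that these kinases phosphorylate, and the control of that knockdown. The labels state no edit of the cells and do not say whether the libraries came from separate cultures. The sources used here name no antibody target, no dose or time of the inhibitor and no content of its control. How far RB was depleted cannot be read from peak lists and was not checked here.

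Lamins are intermediate filament proteins that line the inner face of the nuclear envelope and tether chromatin there. Loss of lamin B1 is widely used as a marker of senescent cells. Cohesin is a ring that holds sister chromatids together and extrudes chromatin loops: SMC1A and SMC3 form its arms, RAD21 closes it, STAG1 or STAG2 binds RAD21, and NIPBL loads the ring onto DNA. CDK4/6 inhibition keeps RB in its active form, in which it represses E2F-driven genes of S phase.

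Levels are given in FPM, the fragments at a summit per 1000000 fragments in the library. The fragments were recovered from the authors' deposited fold and −log10 p. The recovered totals were 1909343 fragments under PD0332991 and 2458767 in the inhibitor control, with 2423302 after RB siRNA and 3479652 in the siRNA control. The peak lists tile nearly the whole genome, with 3206 intervals under PD0332991 against 9720 in the inhibitor control, with 2553 after RB siRNA against 10412 in the siRNA control, and each interval lists only its highest summit. The background track behind the peak calls held 9592 read ends for PD0332991 and 34562 for the inhibitor control, and 7641 for RB siRNA and 36250 for the siRNA control. The treated lists thus have wider intervals (median 557.5 kb for PD0332991 against 189.3 kb for the inhibitor control, and 718.3 kb for RB siRNA against 179.7 kb for the siRNA control), in which more of the lower summits are not listed. Of the luminal prostate markers KLK3, KLK2, TMPRSS2, HOXB13, FOXA1, KRT8 and KRT18, only FOXA1 had a gene-end summit, in every library but the inhibitor control, and of PTPRC, PECAM1, ALB and CD3E, markers of other cells, none had one in any library. With 1 library per group no difference below has a replicate check, no test between conditions was possible, and the 95% intervals cover counting error only. In bulk chromatin, more cells with a signal and more signal per cell cannot be told apart.

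RefSeq promoter windows on GRCh38.p14, of 300 bases with 250 before and 50 after an annotated gene start, were found for 8 of the 9 genes (14 windows), and not for RAD21. Of the STAG2 starts with a summit within 1000 bp past them, only the second, the nearest to the summits, is shown. The outer start, 997 bp before the PD0332991 summit, is left out. The windows below, of LMNB1, SMC3, STAG1, STAG2 and NIPBL, belong to starts with a listed summit inside the window or within 1000 bp downstream. Each is printed 5′ to 3′ in the direction of the gene, and capitals mark matches on either strand to the words CCGGAAG (ETS), TTCGCGC, as well as TTGGCGC and the variant TTCCCGC (E2F), GCGCATG (NRF1), AAGATGG (YY1) and CCCGCCC (SP).
LMNB1 outer start, chr5:126776373-126776672, plus strand: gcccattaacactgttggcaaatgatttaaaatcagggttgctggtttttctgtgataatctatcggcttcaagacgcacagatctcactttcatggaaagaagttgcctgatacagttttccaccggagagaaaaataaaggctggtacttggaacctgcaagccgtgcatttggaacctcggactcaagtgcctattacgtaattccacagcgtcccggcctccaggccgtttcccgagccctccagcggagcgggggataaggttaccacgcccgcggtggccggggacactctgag
LMNB1 inner start, chr5:126776886-126777185, plus strand: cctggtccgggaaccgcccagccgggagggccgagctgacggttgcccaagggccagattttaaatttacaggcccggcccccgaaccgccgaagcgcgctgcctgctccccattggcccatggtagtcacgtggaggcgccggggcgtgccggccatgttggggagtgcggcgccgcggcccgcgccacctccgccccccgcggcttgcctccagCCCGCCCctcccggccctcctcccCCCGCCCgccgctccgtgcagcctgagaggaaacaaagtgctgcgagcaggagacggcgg
SMC3, chr10:110567445-110567744, plus strand: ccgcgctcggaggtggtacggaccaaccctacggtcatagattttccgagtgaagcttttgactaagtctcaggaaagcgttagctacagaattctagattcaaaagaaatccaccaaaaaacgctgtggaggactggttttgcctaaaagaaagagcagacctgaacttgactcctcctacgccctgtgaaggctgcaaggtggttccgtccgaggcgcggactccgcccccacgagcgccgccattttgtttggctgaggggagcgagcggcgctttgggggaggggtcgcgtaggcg
STAG1, chr3:136752329-136752628, minus strand: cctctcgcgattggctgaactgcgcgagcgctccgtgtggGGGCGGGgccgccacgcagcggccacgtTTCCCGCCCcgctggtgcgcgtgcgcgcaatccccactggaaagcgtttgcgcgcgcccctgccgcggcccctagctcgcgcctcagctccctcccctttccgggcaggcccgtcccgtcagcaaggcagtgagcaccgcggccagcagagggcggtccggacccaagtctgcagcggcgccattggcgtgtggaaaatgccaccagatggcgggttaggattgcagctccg
STAG2 second start, chrX:123961062-123961361, plus strand: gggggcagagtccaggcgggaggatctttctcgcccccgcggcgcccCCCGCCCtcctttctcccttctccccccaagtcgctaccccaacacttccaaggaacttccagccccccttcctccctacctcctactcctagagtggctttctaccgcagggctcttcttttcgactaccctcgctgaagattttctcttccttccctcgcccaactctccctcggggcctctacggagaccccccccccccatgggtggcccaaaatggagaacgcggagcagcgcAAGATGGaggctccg
NIPBL, chr5:36876519-36876818, plus strand: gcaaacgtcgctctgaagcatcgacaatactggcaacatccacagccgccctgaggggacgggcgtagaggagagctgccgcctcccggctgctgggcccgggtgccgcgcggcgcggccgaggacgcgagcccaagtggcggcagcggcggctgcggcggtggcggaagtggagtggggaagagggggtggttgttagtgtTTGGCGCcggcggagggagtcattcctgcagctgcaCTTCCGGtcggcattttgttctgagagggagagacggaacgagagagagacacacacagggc

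Both LMNB1 windows lacked the ETS and E2F words, and the inner one held 2 SP words just before the start. The ETS word, which fits the core that ETS family factors bind, was in windows of LMNB2, NIPBL and SMC1A, 3 of the 8 genes, against 12.2% of 27305 genes in the table. An E2F word was in windows of LMNA, NIPBL, SMC1A, STAG1 and STAG2, 5 of 8 genes against 13.1%. In LMNA and STAG1 that E2F word overlapped an SP word, and an SP word was in 5 of 8 genes against 36.7%. A YY1 word was in LMNB2 and STAG2 (2 of 8 genes, against 7.11%), the NRF1 word in none (5.3%), and the short CTCF core CCCTC in 6 of 8 (73.3%). LMNA and STAG2 have 3 windows each, and more windows give more places for a match. By window the E2F words were in 5 of 14 against 11% of 35116 windows. The ETS word was in 4 of 14 (10.3%), the SP word in 9 (33.1%) and the YY1 word in 2 (5.84%). SMC3 held none of the 5 words in capitals, and had summits inside its window in both controls. Matches describe these windows and are not shown to be bound.

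Of the 9 genes, 3 had a gene-end summit under PD0332991 (LMNB1, RAD21 and STAG2) and 5 in the inhibitor control (LMNB1, LMNB2, RAD21, SMC3 and NIPBL). After RB siRNA 2 had one (LMNB1 and NIPBL), against 4 in the siRNA control (LMNB1, RAD21, SMC3 and STAG1). Among all protein-coding genes the shares were 7.73% under PD0332991 and 16.8% in the inhibitor control, with 6.63% after RB siRNA and 17.3% in the siRNA control. Since the genes were chosen with results known, nothing is read from their higher shares. Background depth was lower in both treated lists than in their controls, and its part in the counts was not tested. LMNB1 was the 1 gene with a gene-end summit in every library. SMC1A and LMNA had one in none. Other genes lie within 1000 bp of an end of SMC3 (LOC105378483), STAG1 (STAG1-DT), STAG2 (STAG2-AS1) and NIPBL (NIPBL-DT). Whether summits at these 4 genes belong to those neighbours was not tested.

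The 14 gene-end summits of the 9 genes held 4 to 39 fragments, the authors' fold over background at them was 1.02 to 1.54, and the deposited −log10 q was 0 at each. Their median level was 6.28 FPM under PD0332991 and 2.85 FPM in the inhibitor control, while over all gene-end summits it was 8.38 FPM under PD0332991 and 4.88 FPM in the inhibitor control. For the genes it was 8.87 FPM after RB siRNA and 3.59 FPM in the siRNA control, and over all gene-end summits 7.43 FPM after RB siRNA and 3.74 FPM in the siRNA control. The medians for the genes rest on 3 genes under PD0332991, 5 in the inhibitor control, 2 after RB siRNA and 4 in the siRNA control. The 8.87 FPM is the middle of LMNB1 (15.3 FPM) and NIPBL (2.48 FPM). The levels of these genes thus rest on few fragments. At all 14 summits the −log10 p was the value set by the library's genome-wide background, so the fold there is over that background. A low −log10 q is no trait of these genes, since of all protein-coding genes 0.155% under PD0332991, 1.17% in the inhibitor control, 0.0849% after RB siRNA and 0.18% in the siRNA control had a gene-end summit with a −log10 q of at least 1.

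**Figure D1:**
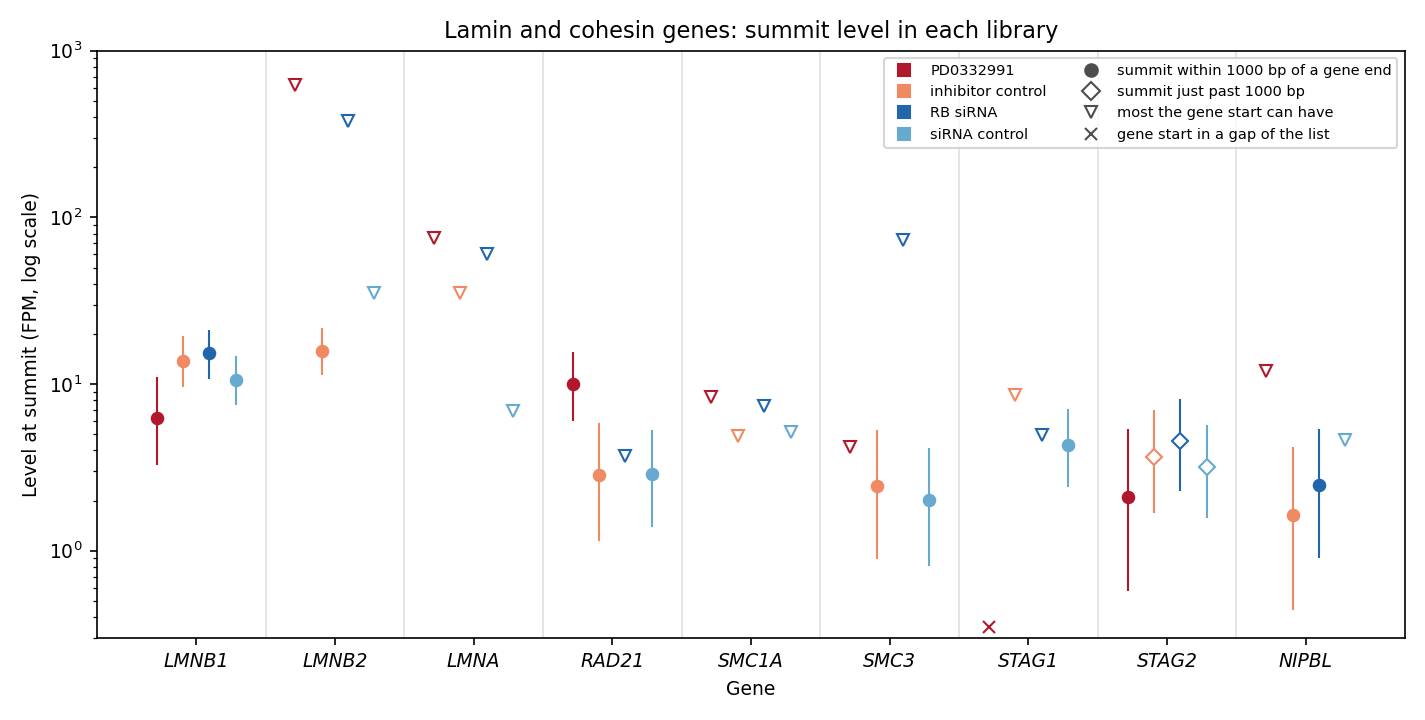
Level at the summit in FPM (log axis) for each gene, with PD0332991, inhibitor control, RB siRNA and siRNA control from left to right within a gene. Filled circles are summits within 1000 bp of a gene end and open diamonds those just past it, with exact Poisson 95% bars; triangles give the most the gene start can have where the interval's listed summit lies elsewhere, and the cross marks a gene start outside every interval. LMNB1 has a circle in all 4 libraries, lowest under PD0332991 (6.28 FPM), while RAD21 is highest there (9.95 FPM).

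LMNB1, which encodes lamin B1, lies on the plus strand of chromosome 5 from 126776623 to 126837020. Its level was 6.28 FPM under PD0332991 (12 fragments, 95% interval 3.25 to 11.0) and 13.8 FPM in the inhibitor control (34 fragments, 9.58 to 19.3). After RB siRNA it was 15.3 FPM (37 fragments, 10.8 to 21.0) and in the siRNA control 10.6 FPM (37 fragments, 7.49 to 14.7). From high to low the order was thus RB siRNA, inhibitor control, siRNA control and PD0332991, and the intervals of neighbours in that order overlap. Within its own library the LMNB1 summit lay above 38.4% of gene-end summits under PD0332991 and above 80.7% in the inhibitor control, and above 73.4% after RB siRNA and 84.6% in the siRNA control. Among listed gene-end summits LMNB1 thus ranked in the upper part in 3 libraries and below the middle under PD0332991. These ranks have unlike bases, with 1289 summits listed under PD0332991, 2852 in the inhibitor control, 1107 after RB siRNA and 2952 in the siRNA control. The ranks in the inhibitor pair also rest on levels known when the genes were listed, so nothing is read from them.

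The summit at LMNB1 was shared by both libraries of each contrast. Under PD0332991 it was at 0.45 times the inhibitor control, a log2 ratio of -1.14 (95% interval -2.22 to -0.15), or -1.34 from the median log2 ratio of 0.20 over the 887 summits shared by these libraries. After RB siRNA it was at 1.44 times the siRNA control (log2 ratio 0.52, -0.18 to 1.22), which lies 0.07 from that contrast's median of 0.45 over 749 shared summits. Between the controls, the log2 ratio of inhibitor control to siRNA control was 0.38 (-0.34 to 1.09), which is -0.21 from the median of 0.59 over 1191 shared summits. The ratio for PD0332991 is among the values known when the genes were listed, so its interval is a description and supports nothing. After RB siRNA the interval spans both no difference and the common shift. Whether the contrasts differ from each other at LMNB1 was not tested. Set as a ratio of the authors' fold over genome-wide background (1.06 under PD0332991 and 1.47 in the inhibitor control), LMNB1 lay -0.12 from the median log2 ratio. The authors' peak caller adds 1 to signal and background for this fold, so at few fragments it stays near 1.

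The LMNB1 summits did not lie at 1 point. RefSeq lists 2 starts for the gene, at 126776623 and 126777136 on chromosome 5. The summit lay 221 bp past the outer start under PD0332991 and 256 bp past it in the inhibitor control, between the 2 windows printed above. After RB siRNA it lay 90 bp before the inner start and in the siRNA control 84 bp before it, at bases 161 and 167 of the inner window. Summits of the same contrast were therefore 35 and 6 bp apart, and those of the 2 controls 173 bp apart. An offset of at least 173 bp was seen at 8.9% of summits shared by the controls, whose median offset was 40 bp. The non-coding gene LMNB1-DT lies beside the same start.

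**Figure D2:**
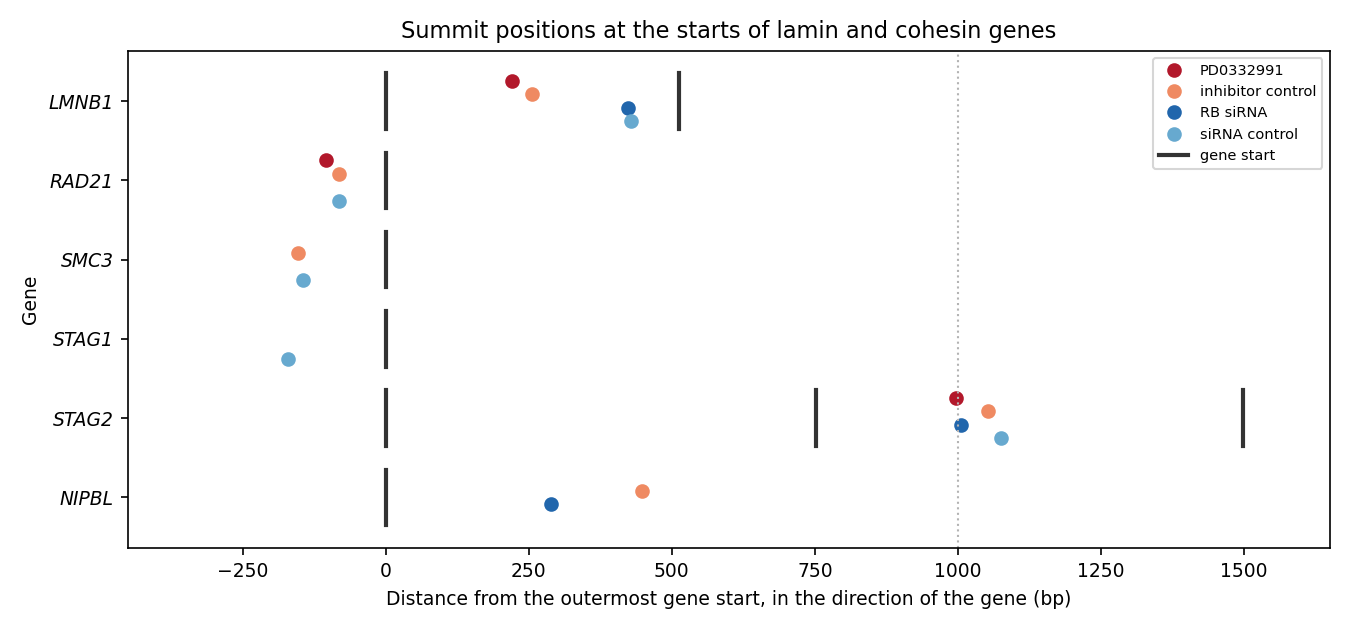
Position of each summit in bp from the outermost gene start (x axis), positive in the direction of the gene, with 1 row per gene and 1 point per library; vertical bars are annotated starts and the dotted line is the 1000 bp limit. For RAD21 the distance is from the end with the higher coordinate, outward negative. LMNB1 summits of the inhibitor pair lie at 221 and 256 bp and those of the siRNA pair near the inner start.

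LMNB2, on the minus strand of chromosome 19 from 2428166 to 2456959, encodes lamin B2, the other B-type lamin. Only the inhibitor control listed a gene-end summit, with 15.9 FPM (39 fragments, 11.3 to 21.7) and a fold of 1.54, the highest of the set. That summit was not at the start of LMNB2: it lay 384 bp beyond the end with the lower coordinate, where transcription of this minus-strand gene stops, and 196 bp from an end of TIMM13, a mitochondrial import chaperone gene. It cannot be told apart from a summit of TIMM13. In the siRNA control the interval over LMNB2 had its summit 331565 bp away at MOB3A and IZUMO4 with 35.3 FPM. It lay inside CELF5 under PD0332991, 828565 bp from the start with 622 FPM, and after RB siRNA, 828552 bp from the start with 376 FPM. These values leave the level at LMNB2 itself unknown in those 3 lists.

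LMNA, which encodes the A-type lamins A and C and runs from 156082573 to 156140081 on the plus strand of chromosome 1, had no gene-end summit in any library. Its start lay in intervals whose summits were 1080307 bp away at ZBTB7B under PD0332991 (74.9 FPM) and 519612 bp away at ASH1L and MSTO1 in the inhibitor control (35.4 FPM). After RB siRNA the interval had its summit at MEF2D (60.2 FPM). In the siRNA control the interval was short enough to be informative: its summit, 28691 bp away at UBQLN4, had 6.90 FPM (24 fragments), so the start of LMNA had at most that level. The other end of LMNA lay under a summit at SLC25A44 of 6.32 FPM there. The limit for LMNA was thus below the 10.6 FPM of LMNB1 in the siRNA control, while the other lists set no limit below LMNB1.

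RAD21 encodes the cohesin subunit that separase cleaves at anaphase. The gene runs from 116845934 to 116874776 on chromosome 8. Its level was 9.95 FPM under PD0332991 (19 fragments, 5.99 to 15.5) and 2.85 FPM in the inhibitor control (7 fragments, 1.14 to 5.87). The siRNA control gave 2.87 FPM (10 fragments, 1.38 to 5.29). Both control summits were at the same base, 81 bp beyond the end of RAD21 with the higher coordinate, and the PD0332991 summit was 23 bp further out. The transcripts MIR3610 and RAD21-AS1 lie at the same end. The levels under PD0332991 and in the inhibitor control are those known when the genes were listed, and nothing is read from their intervals. The log2 ratio between the controls was -0.01 with a wide interval of -1.64 to 1.53.

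The RAD21 level under PD0332991 was 3.50 times that of the inhibitor control (log2 ratio 1.81, 0.49 to 3.30), or 1.61 from the median log2 ratio, and 0.36 from the median when the authors' fold was used. Its geometric mean of 5.32 FPM was just past the 5 FPM required for a call. After RB siRNA no summit was listed at RAD21. Its interval had its summit 108407 bp from the siRNA control's RAD21 summit, at UTP23 and EIF3H, with 3.71 FPM (9 fragments). The RAD21 level after RB siRNA was therefore at most 1.29 times that of the siRNA control, a limit that rests on 9 and 10 fragments. The counting interval of the 3.71 FPM summit, 1.70 to 7.05 FPM, overlaps that of RAD21 under PD0332991 (5.99 to 15.5). In FPM, LMNB1 and RAD21 thus differed from the inhibitor control in opposite directions, and both were listed with these levels known.

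Of the genes with a shared summit of at least 5 FPM (geometric mean of the pair), 2 were at least 2-fold from the median ratio for PD0332991 over its control, RAD21 above and LMNB1 below. Over all 887 shared summits 3.61% were at least 2-fold above and 3.16% at least 2-fold below. By the counting interval the same 2 genes lay beyond the median, against 9.13% above and 7.78% below over all. For RB siRNA over its control LMNB1 was the only gene that passed the level minimum and it was called by neither rule (1.07% at least 2-fold above and 0.801% below over all, and 7.61% and 5.74% by the counting interval). Between the controls LMNB1 again was the only one and was not called (2.35% and 3.78%, and 11.9% and 8.4% by the counting interval). RAD21 and LMNB1 were listed for their inhibitor ratios, so nothing is read from the share of genes called there.

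**Figure D3:**
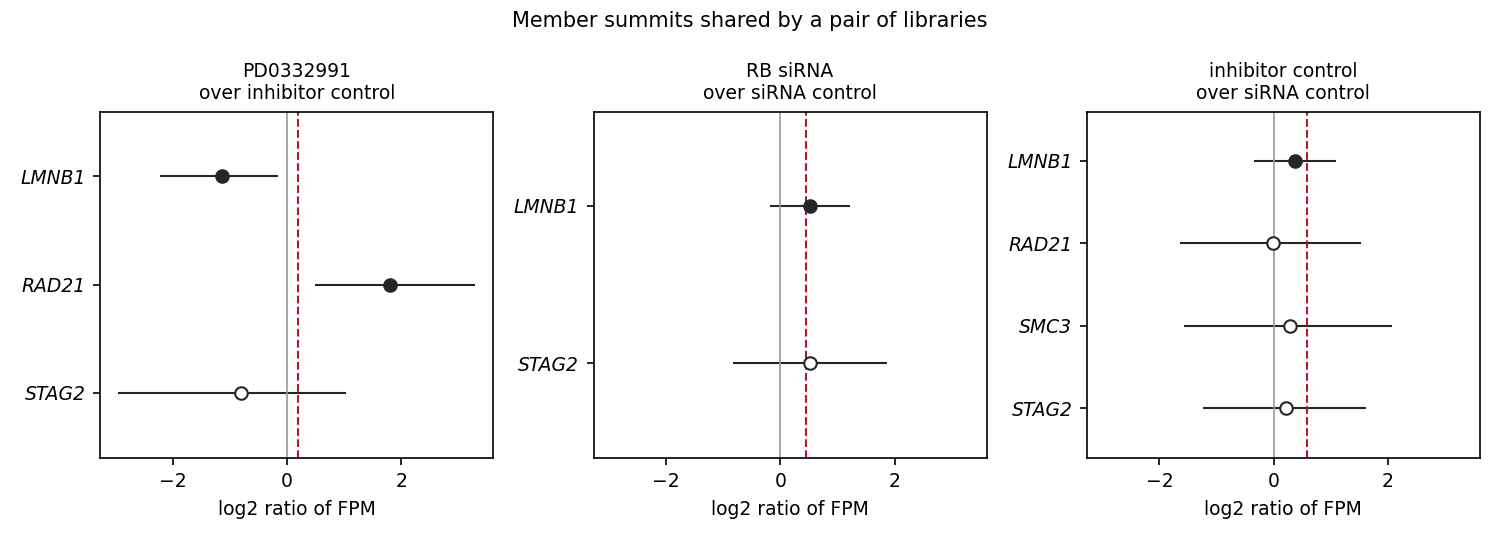
log2 ratio of FPM (x axis) for each gene with a summit shared by a pair of libraries, in 3 panels for PD0332991 over inhibitor control, RB siRNA over siRNA control, and inhibitor control over siRNA control. Bars are exact 95% counting intervals, filled points have a geometric mean of at least 5 FPM, the grey line is no difference and the dashed line the median of all shared summits. LMNB1 (-1.14) and RAD21 (1.81) are on opposite sides of the dashed line in the first panel, and every other bar crosses it.

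**Figure D4:**
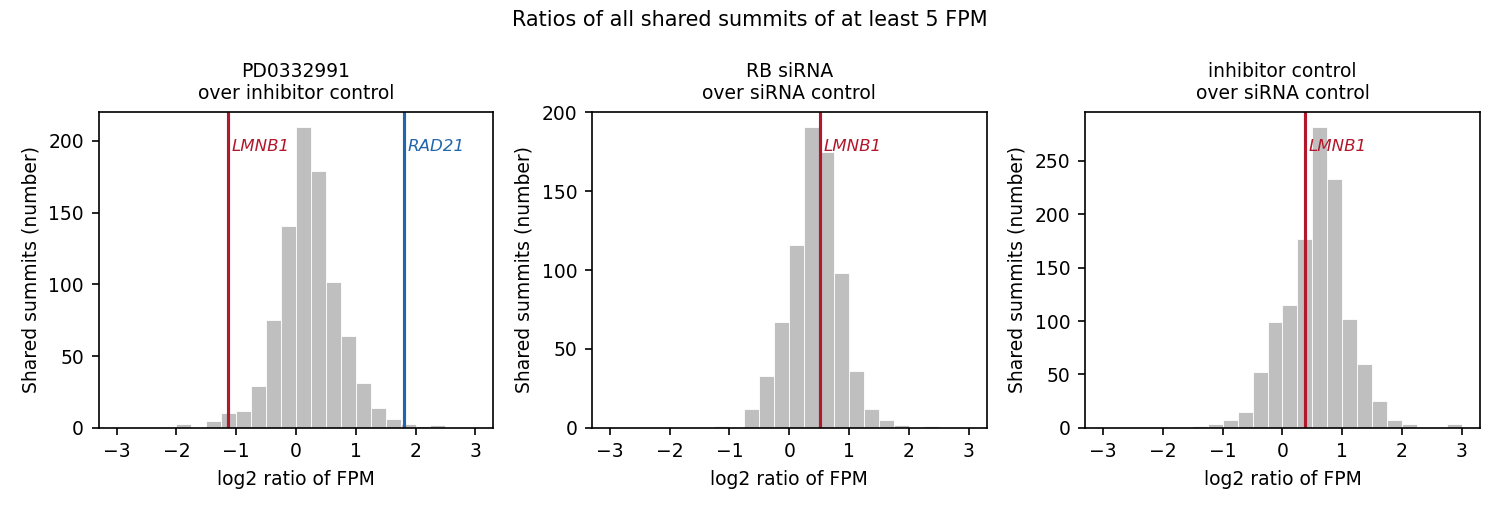
Number of shared summits of at least 5 FPM (y axis) by log2 ratio of FPM (x axis, bins of 0.25, ends pooled) in the same 3 comparisons, with lines at the ratios of LMNB1 and RAD21. In the first panel the lines are in the tails of the 887 summits; in the other panels LMNB1 lies near the middle.

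SMC3, an ATPase arm of the ring whose gene runs from 110567695 to 110606048 on the plus strand of chromosome 10, was listed at its start in both controls and in neither treated library. The level was 2.44 FPM in the inhibitor control (6 fragments, 0.90 to 5.31) and 2.01 FPM in the siRNA control (7 fragments, 0.81 to 4.14), at bases 97 and 106 of the printed window and 9 bp apart. Between these controls its log2 ratio was 0.28 (-1.57 to 2.08). Under PD0332991 the interval's summit was at DUSP5 with 4.19 FPM, so SMC3 was at most 1.72 times its control level there. After RB siRNA a summit of 73.5 FPM, 341001 bp away nearest to MXI1, sets no useful limit. The absence of SMC3 from the treated lists is thus not shown to be a loss.

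SMC1A, the other ATPase arm, on the minus strand of chromosome X from 53374149 to 53422728, had no listed summit at either end, and its start faces that of RIBC1. In the PD0332991, RB siRNA and siRNA control lists its interval had a summit inside PHF8, 621838 to 622016 bp away, with 8.38 FPM under PD0332991, 7.43 FPM after RB siRNA and 5.17 FPM in the siRNA control. In the inhibitor control the start lay under a summit inside HUWE1 of 4.88 FPM. The start of SMC1A therefore had at most 4.88 to 8.38 FPM in these libraries.

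The STAG genes encode the alternative subunits that bind RAD21. STAG1, on the minus strand of chromosome 3 from 136336236 to 136752378, had a gene-end summit in the siRNA control only, 171 bp before its start at base 80 of the printed window, with 4.31 FPM (15 fragments, 2.41 to 7.11). That base lies a few bases past the overlapping E2F and SP words of the window. After RB siRNA the interval over STAG1 had its summit at PPP2R3A with 4.95 FPM (12 fragments), so STAG1 was at most 1.15 times its control level. Under PD0332991 the start lay in a gap of the list, where no value is given, and in the inhibitor control at most 8.54 FPM was allowed by a summit at MSL2. These are upper limits that rest on few fragments, and they set no lower limit, so a lower level of STAG1 in those libraries cannot be told from an equal one.

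STAG2, the paralogue on the plus strand of chromosome X from 123960560 to 124102656, was the gene that the 1000 bp limit divided. The summit lay 997 bp past the outer start under PD0332991, 1053 bp in the inhibitor control, 1006 bp after RB siRNA and 1076 bp in the siRNA control, so that of 4 neighbouring summits only the first counted as at the gene end. All were 245 to 324 bp past the second of the 3 annotated starts. The level was 2.09 FPM under PD0332991 (4 fragments, 0.57 to 5.36) and 3.66 FPM in the inhibitor control (9 fragments, 1.67 to 6.95). After RB siRNA it was 4.54 FPM and in the siRNA control 3.16 FPM (11 fragments each). Log2 ratios were -0.81 (-2.96 to 1.04) for PD0332991 over its control and 0.52 (-0.82 to 1.87) for RB siRNA over its control. STAG2 was thus listed in all 4 libraries, and the intervals of both ratios include no difference.

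NIPBL, the loader, on the plus strand of chromosome 5 from 36876769 to 37066413, had 2.48 FPM after RB siRNA (6 fragments, 0.91 to 5.39), 288 bp past its start, and 1.63 FPM in the inhibitor control (4 fragments, 0.44 to 4.17), 448 bp past it. Both lie downstream of the printed window with its ETS and E2F words. In the siRNA control the start lay under a summit at NADK2 of 4.60 FPM, and under PD0332991 under a summit at NUP155 of 12.0 FPM. NIPBL summits were among the lowest listed, above 9.3% of gene-end summits after RB siRNA and above 7.0% in the inhibitor control, and no contrast has it in both libraries.

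The genes nearest in level were named by the smallest value of the largest log2 difference over the libraries in which a gene had a summit. For LMNB1 over 4 libraries and 488 genes these were DRC10 and TPCN1, which share 1 summit on chromosome 12, at 0.58, and LOC110384692 at 0.66. The shared summit had 9.43 FPM under PD0332991, 17.1 FPM in the inhibitor control, 14.0 FPM after RB siRNA and 9.48 FPM in the siRNA control. For RAD21 over 3 libraries and 837 genes they were SHOX2 (0.19), CACUL1 (0.44) and VPS37C (0.49). SHOX2 had 9.95 FPM under PD0332991, 3.25 FPM in the inhibitor control and 2.87 FPM in the siRNA control. The few fragments at SMC3 and NIPBL made exact ties common: 8 of 1820 genes and 5 of 941 genes had the same counts in both libraries compared, among them FAM229B, INO80D and KLHDC10 for SMC3, and CIP2A, DZIP3 and EPB41L2 for NIPBL.

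Other genes of these pathways were taken from lists written from general knowledge, but with earlier results of these data known, and with no test. Of 26 cohesin regulators and other SMC complex genes, 7 had a gene-end summit under PD0332991 (26.9%) and 8 in the inhibitor control (30.8%), with 5 after RB siRNA (19.2%) and 10 in the siRNA control (38.5%). Of 20 genes of the lamina and nuclear envelope the numbers were 4 under PD0332991 (20%) and 6 in the inhibitor control (30%), with 4 after RB siRNA (20%) and 7 in the siRNA control (35%). Among all protein-coding genes the shares were 7.73% under PD0332991, 16.8% in the inhibitor control, 6.63% after RB siRNA and 17.3% in the siRNA control. Nothing is read from the higher shares of these lists. CTCF, the factor that halts cohesin, had 39.3 FPM under PD0332991 and 28.9 FPM in the inhibitor control, and 34.3 FPM after RB siRNA and 19.8 FPM in the siRNA control. RAD21L1, a meiotic RAD21 paralogue, had 54.5 FPM under PD0332991 and 36.6 FPM in the inhibitor control, and 23.5 FPM after RB siRNA and 21.6 FPM in the siRNA control. Both were several times above RAD21 itself in FPM, and CTCF and RAD21L1 had log2 ratios within counting error of the median in all 3 comparisons.

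The condensin II gene NCAPH2, whose end is shared with LMF2, had the highest level of these lists. It was 161 FPM under PD0332991 and 82.2 FPM in the inhibitor control, and 134 FPM after RB siRNA and 118 FPM in the siRNA control. EMD, which encodes the lamin-binding protein emerin, had 83.3 FPM under PD0332991 and 81.3 FPM in the inhibitor control, and 54.9 FPM after RB siRNA and 42.5 FPM in the siRNA control. Both were thus among the strongest gene-end summits of their lists in every library. TPR of the nuclear pore basket, at an end shared with ODR4, had 39.8 FPM under PD0332991 and 26.4 FPM in the inhibitor control, and 23.1 FPM after RB siRNA and 18.1 FPM in the siRNA control. TOR1AIP1, which encodes the lamina-associated protein LAP1, had 11.5 FPM under PD0332991 and 7.73 FPM in the inhibitor control, and 16.9 FPM after RB siRNA and 10.1 FPM in the siRNA control. These summits also lay 8 to 55 bp from an end of LOC139427322. In each list, 3 genes had shared summits of at least 5 FPM in each treated contrast and none was at least 2-fold from the median ratio. The counting interval of NCAPH2 excluded the median in both, at 0.77 above it for PD0332991 and -0.26 from it for RB siRNA on the log2 scale. Over all shared summits the interval lay above the median at 9.13% for PD0332991 and below it at 5.74% for RB siRNA.

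The medians of those shared summits rest on 3 or 4 genes each. For PD0332991 over its control the median log2 ratio was 0.57 for the cohesin list and 0.58 for the lamina list, against 0.20 over all shared summits. For RB siRNA over its control it was 0.19 for the cohesin list and 0.37 for the lamina list, against 0.45 over all. Between the controls 1 of 3 cohesin list genes was at least 2-fold below the median, against 3.78% of all shared summits. It was NCAPH2, with a log2 ratio of -0.52 (-0.77 to -0.27). Of the lamina list genes 0 of 4 were at least 2-fold from the median. By the counting interval EMD lay above it (log2 ratio 0.94, 0.62 to 1.25) and TOR1AIP1 below it (-0.38, -1.27 to 0.47). Over all shared summits 11.9% lay above and 8.4% below by that rule. NCAPG2, another condensin II subunit, was listed in 2 libraries, with 12.8 FPM after RB siRNA and 17.9 FPM in the inhibitor control. ICMT, the methyltransferase that matures farnesylated lamins, was listed in the controls only, with 11.0 FPM in the inhibitor control and 4.60 FPM in the siRNA control.

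**Figure D5:**
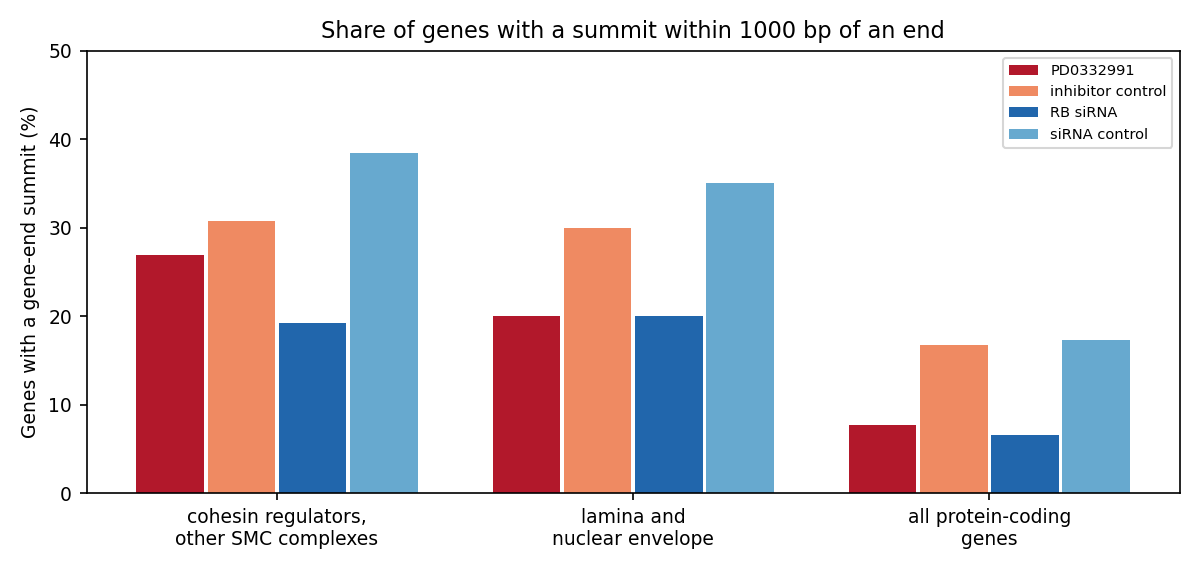
Share of genes in percent (y axis) with a summit within 1000 bp of an end, in the 26 cohesin regulator and other SMC genes, the 20 lamina and nuclear envelope genes and all 20033 protein-coding genes, with 1 bar per library. Shares are lower in the PD0332991 and RB siRNA bars than in their controls in each group, among all genes 7.73% for PD0332991 against 16.8% for the inhibitor control, and 6.63% for RB siRNA against 17.3% for the siRNA control.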

How the data were processed

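The deposited files are peak lists of 4 CUT&Tag libraries on hg38. Per the submitters' processing notes, bcl2fastq 2.17, Trimmomatic 0.33, Bowtie2 and MACS2 2.1.0 were used; per the labels' protocols, chromatin was fixed and sonicated. The authors deposited, for each interval, a score, which equals the whole part of 10 times −log10 p in 100% of intervals. The fold at the summit over local background was computed by the authors' peak caller. The −log10 p and −log10 q were likewise deposited by the authors. The effective genome (2.7 Gb) and local background window (10000 bp) of the caller are stated in no source used here, so its defaults were assumed; they set the library totals.

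Fragments at each summit were recovered as the whole number that gives both the fold and the p (whole within 0.05 for 99.99% of intervals or more). On summits simulated from the recovered values with the same formula, at least 99.99% were recovered. That checks the solving step only, and not the assumed settings or the library totals. Between 1.06% and 4.93% of intervals had several solutions. Depth limits the precision: 1 fragment is 0.524 FPM under PD0332991, 0.407 FPM in the inhibitor control, 0.413 FPM after RB siRNA and 0.287 FPM in the siRNA control. Summits were shared when mutually nearest within 250 bp, and compared at a geometric mean of at least 5 FPM, with a call at 2-fold from the median ratio. Intervals are exact, from the conditional binomial (ratios) or the Poisson distribution (levels). No test between conditions was run, since each group holds 1 library. Members and lists were chosen with earlier results of these data known. Genes outside the 9 were named as the 8 with the highest mean fold among listed pathway genes with a gene-end summit in at least 2 libraries, and as the 3 nearest in level to each of the 9 with such summits in at least 2 libraries. Python, numpy, scipy, pandas and matplotlib were used.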

Additional observations from a re-analysis of the deposited data

How the results depend on the processing

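Of the 9 genes, those with a gene-end summit at a −log10 q of at least 1 numbered 0 in each of the 4 libraries, where 0.0849% to 1.17% of all protein-coding genes had one. At a fold of at least 1.5 the number was 0 for PD0332991 (0.434% of all genes), 1 for the inhibitor control (LMNB2; 3.21%), 0 for RB siRNA (0.245%) and 0 for the siRNA control (1.87%). With the ratio of the authors' fold in place of fragments, 0 genes were called for PD0332991 over inhibitor control, against 2 with fragments. LMNB1 was then at -0.12. That fold has 1 added to signal and background, and each fragment adds 0.005 to it for PD0332991 and 0.014 for the inhibitor control. At so few fragments the fold stays near 1, and LMNB1 could not have been called below. The 0 calls therefore decide nothing about the calls made with fragments. The share of all shared summits called with the fold is not given here, so the 0 has no background beside it. With a window of 500 bp the numbers with a gene-end summit were 2 for PD0332991 (6.63% of all genes), 5 for the inhibitor control (14.3%), 2 for RB siRNA (5.86%) and 4 for the siRNA control (15%). With 2500 bp they were 3 for PD0332991 (8.74%), 6 for the inhibitor control (19.7%), 3 for RB siRNA (7.57%) and 5 for the siRNA control (20.3%), since STAG2 then counted in every library. Adding every RefSeq gene start, chosen after seeing the data, gave the same numbers as 2500 bp, against 8.51% of all genes for PD0332991, 18.7% for the inhibitor control, 7.38% for RB siRNA and 19.2% for the siRNA control. Matching within 100 or 500 bp, no centring and the counting-interval rule, the last chosen after seeing the data, left LMNB1 below and RAD21 above for PD0332991 over its control. Without a minimum level STAG2, on 4 and 9 fragments, was called below as well, which made 3 genes. The base was then 1178 shared summits. The share called among them is not given here, so nothing is read from the 3. No paired analysis was possible because each group holds 1 library, and for the same reason no library could be left out.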

Other observations

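The summits listed in place of unlisted gene ends ranged widely. Low ones were 3.71 FPM at UTP23 and EIF3H over RAD21 and 4.95 FPM at PPP2R3A over STAG1, both after RB siRNA, and 4.19 FPM at DUSP5 over SMC3 under PD0332991. The summit inside CELF5, which encodes an RNA-binding protein, had 622 FPM under PD0332991 and 376 FPM after RB siRNA. The summit nearest to MXI1, a MYC antagonist gene, had 73.5 FPM after RB siRNA. The summit at ZBTB7B had 74.9 FPM under PD0332991, and that at MEF2D had 60.2 FPM after RB siRNA. The summit at NUP155, a nuclear pore gene beyond the end of NIPBL, had 12.0 FPM under PD0332991 and 7.18 FPM in the siRNA control. Inside LMNB1 the inhibitor control listed a further summit of 1 fragment, 4915 bp from the gene's end, and inside STAG1 the siRNA control listed summits of 2 and 3 fragments.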
